A study of Homo sapiens with 7 samples.

Results

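The glycolytic pathway turns glucose into pyruvate in the cytosol and yields ATP and NADH. Lactate dehydrogenase then reduces pyruvate to lactate and returns NAD+ to the pathway. Human pluripotent stem cells are known for a high rate of glycolysis, and the mRNAs of these enzymes are among the abundant ones in many cell types. Described here are 9 enzymes of the pathway other than pyruvate kinase: GPI, ALDOA, TPI1, GAPDH, PGK1, PGAM1, ENO1, LDHA and LDHB. They were chosen by name, and all 9 of the 14294 genes in the table were found under their Ensembl gene ID.

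The data are PacBio long reads of polyadenylated RNA, counted per isoform, from HUES66, an established line of human embryonic stem cells. Each of 7 libraries stands alone in its group. The control has the genotype WT. The 6 others carry an RBFOX2 isoform knockdown by Cas13d, a nuclease that cuts RNA at a guide's target, and the labels give the id 178147 for G3, 178149 for G5, 178136 for G11, 178135 for G12, 178145 for G13 and 178146 for G14. The labels mark all 7 as piggyBac, a transposon used to insert transgenes, and all 7 cultures received doxycycline at 1 µg/ml with a time point of 24 h. The labels do not say which RBFOX2 isoform each id denotes, whether the control carried Cas13d or a guide, or whether a library came from 1 clone.

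The control was the shallowest library, with 16801842 reads, and G12 the deepest, with 26678538. Every listed isoform has at least 1 read in the control, so reads of isoforms seen in a G library alone are missing, and the listed isoforms hold 98.1% to 98.6% of the reads of a G library. The targeted gene, RBFOX2, had a level of 107 TPM in the control, and among the G libraries it was lowest in G3 (42.1 TPM) and G13 (55.9 TPM), followed by G11 (82.9 TPM), G12 (88.5 TPM), G5 (96.8 TPM) and G14 (106 TPM). TPM here is the read count scaled to the library's total alone, with no term for transcript length. Of 10 markers of pluripotent stem cells, 9 had isoforms in the table, with a summed level of 1622 to 2077 TPM. SOX2 had none under its gene ID. The members of this list did not move together. POU5F1 was at 915 TPM in the control, against 377 (G14) to 588 (G3) among the G libraries, and NANOG at 10.0 TPM, against 3.49 to 5.54. L1TD1 was at 18.2 TPM in the control, against 24.9 to 41.0 among the G libraries. Markers of mesoderm, endoderm and ectoderm summed to at most 0.238 TPM per list in any library. Of 5 fibroblast markers, COL1A1 and COL1A2 were present, with a sum of 4.21 to 38.5 TPM over the 7 libraries, and COL3A1, LUM and DCN were at 0. The part of these genes in the results was not tested.

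With 1 library per group there is no replicate, so no difference between conditions was tested. The intervals given are 95% intervals that cover counting error only, and they compare libraries. A level in bulk RNA also cannot separate fewer cells from less RNA per cell.

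The 9 enzymes together held less of the RNA in every G library than in the control. Their sum was 20892 TPM in the control, or 2.09% of all reads. It was 18800 TPM for G3, 16199 for G5, 16281 for G11, 18368 for G12, 18562 for G13 and 15305 for G14. The lowest sum, that of G14, was 1.53% of all reads. The lower sums came mainly from TPI1 and GAPDH, at 5846 and 3438 TPM in the control against 2416 and 966 TPM in G14. The enzymes did not move as 1 group. TPI1, GAPDH, PGAM1 and LDHB were highest in the control, ENO1 was lowest there, and GPI, ALDOA, PGK1 and LDHA lay above the control in some G libraries and below it in others.

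**Figure D1:**
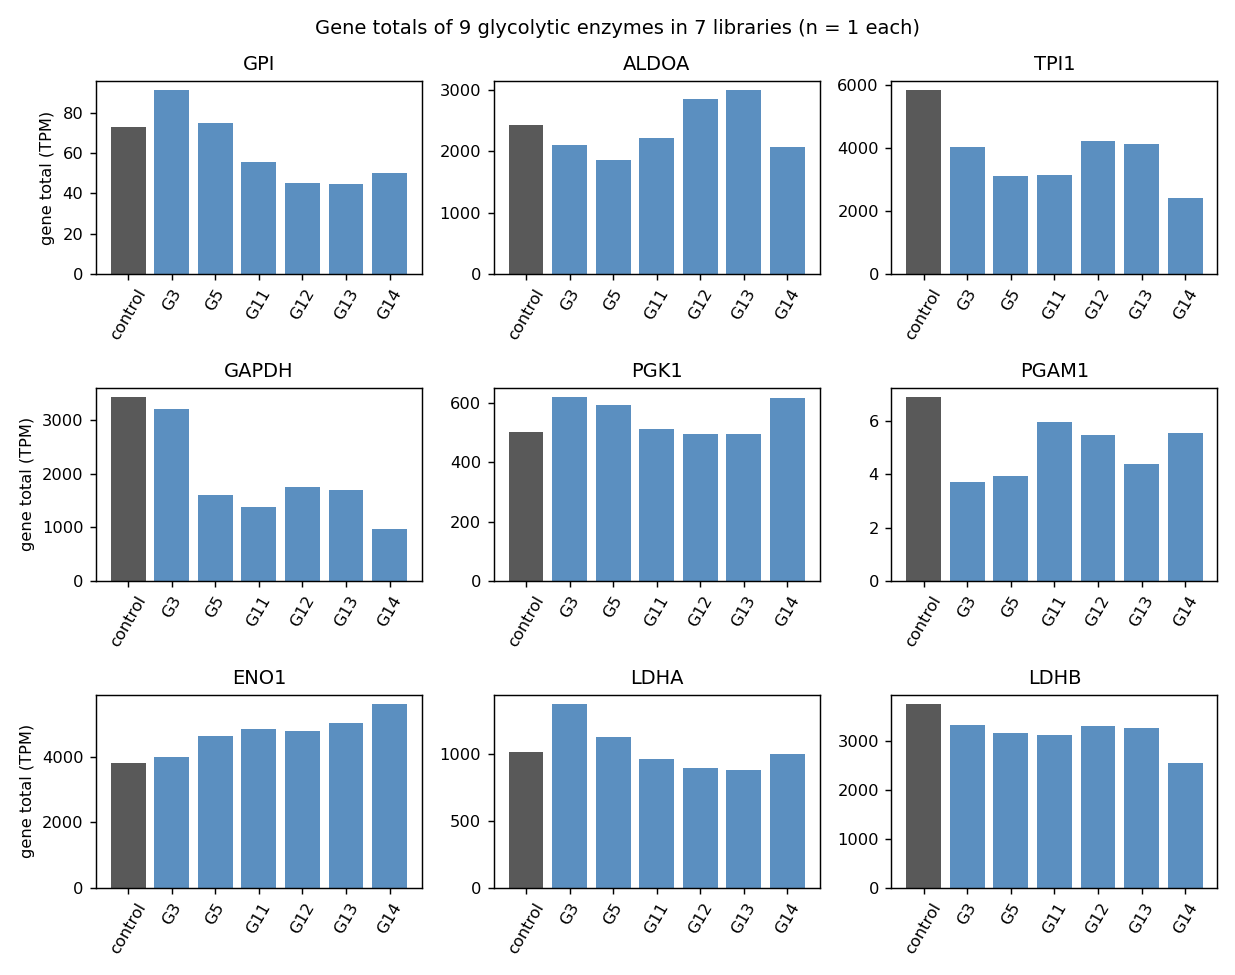
Bars give the gene total in TPM (y axis, from 0, a scale of its own for each gene) of the 9 enzymes in the 7 libraries (x axis, 1 library each, control in grey). GAPDH is highest in the control at 3438 TPM and lowest in G14 at 966 TPM, while ENO1 is lowest in the control at 3821 TPM and highest in G14 at 5642 TPM.

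A control that is the highest of the 7 libraries was also common among all genes. This held for 4 of the 9 enzymes (44.4%) and for 20.5% of the 7877 genes with a mean of at least 5 TPM. The control was the lowest for 1 of the 9 and for 21.1% of those genes. PGAM1 is among the 4, although its control level was within counting error of those of G11, G12 and G14. Because all 6 ratios share the control library, the direction in 6 G libraries is not 6 independent observations.

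Differences of at least 2-fold were few. Of 54 pairs of an enzyme and a G library, 5 were at least 2-fold lower than the control and none was 2-fold higher, 9.26% in all. Among all genes compared, 12.8% of such pairs were at least 2-fold from the control in either direction, 11.3% were 2-fold lower and 1.45% 2-fold higher. Among genes with a mean of at least 100 TPM the share was 8.28% in either direction. The share in the enzymes is thus near the background. The 5 pairs were GAPDH in G5, G11, G13 and G14 and TPI1 in G14. Of all genes compared, 5.14% were at least 2-fold lower for G3, 10.1% for G5, 10.4% for G11, 8.79% for G12, 14.6% for G13 and 18.9% for G14. With the trend of ratios along transcript length and GC content removed, a ratio is relative to the value fitted for genes alike in both. Such a ratio can be positive for a gene below the control. On that scale 1 pair was left, GAPDH in G14. With the median of the other 6 libraries in place of the control, no pair was 2-fold apart. No share over all genes is given for either setting, so these counts are not set against a background. The ratios of all genes also narrowed with the trend removed. Their 10th percentile in G14 was -1.41 as deposited and -0.84 after removal.

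The median log2 ratio over the 9 enzymes, on the log2(TPM + 0.5) scale, was -0.10 for G3, -0.25 for G5, -0.20 for G11, -0.19 for G12, -0.20 for G13 and -0.29 for G14. The median over all genes compared was 0.12, 0.14, -0.04, -0.16, -0.21 and -0.10 in the same order. The enzymes thus lay below the median gene in G3, G5, G11 and G14, and within 0.03 of it in G12 and G13. After removal of the length and GC trend the median of the enzymes was 0.089 in G3, above the median gene at 0.020. In G5 it was 0.025, below the median gene at 0.068. In G11, G12, G13 and G14 it was -0.13, -0.12, -0.14 and -0.096, below the median gene at 0.046, 0.021, 0.027 and 0.047.

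**Figure D2:**
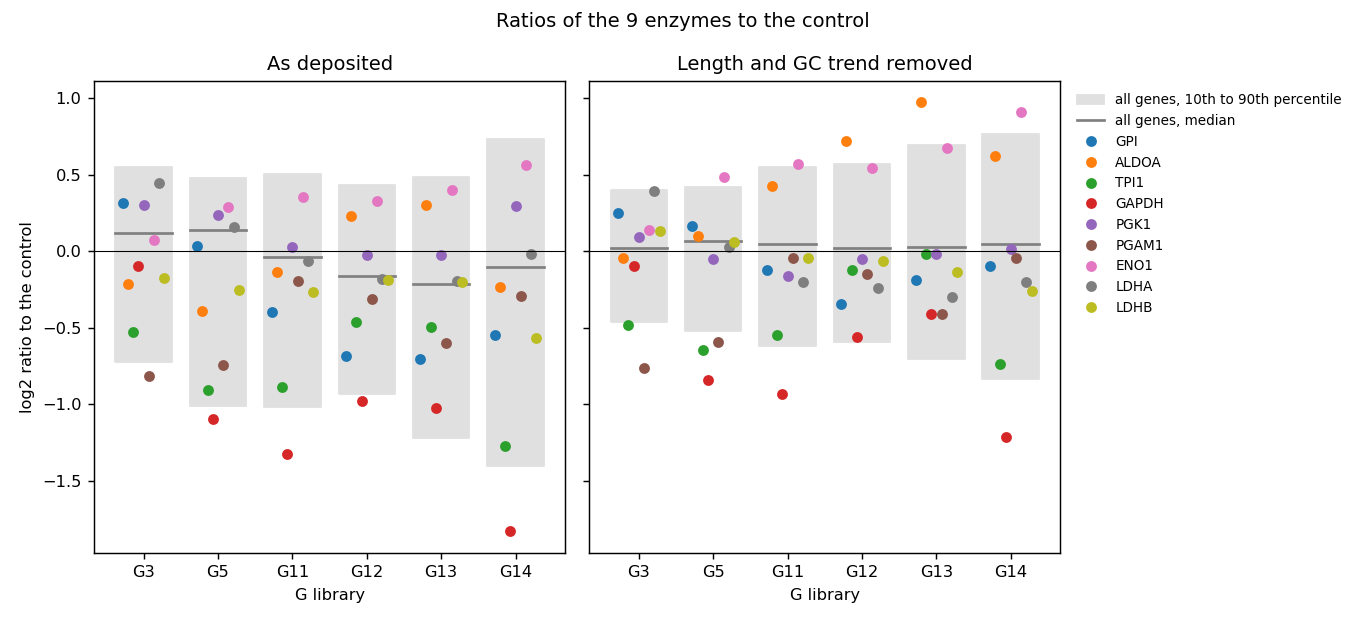
Points are the log2 ratios of the 9 enzymes to the control (y axis) in each G library (x axis), as deposited on the left and with the length and GC trend removed on the right. Grey boxes span the 10th to 90th percentile of all genes compared and grey lines their median. GAPDH lies lowest in G5, G11, G12, G13 and G14 on the left, and ENO1 stays above 0 in all 6 libraries on both sides.

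The steps of the pathway follow in order. GPI, which isomerises glucose-6-phosphate to fructose-6-phosphate, lies on chromosome 19 (34359480 to 34402413, plus strand; all gene spans are from GENCODE 29 on GRCh38). Its level was 73.1 TPM for the control, 91.2 for G3, 74.9 for G5, 55.3 for G11, 45.3 for G12, 44.7 for G13 and 49.9 for G14. G3 was the highest library, at 125% of the control (interval 116 to 135), and G13 the lowest, at 61.1% (56.2 to 66.5). G5 did not differ from the control beyond counting error (95.4 to 110), its sign turned with median-of-ratios scaling, and neither did G12 from G13. After removal of the length and GC trend the median log2 ratio over the 6 was -0.11 in place of -0.47, and G12 was the lowest at -0.34.

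ALDOA, the aldolase that splits fructose-1,6-bisphosphate, lies on chromosome 16 (30064164 to 30070457, plus strand). Its level was 2438 TPM for the control, 2102 for G3, 1862 for G5, 2217 for G11, 2853 for G12, 2999 for G13 and 2073 for G14. ALDOA was above the control in G12 and G13 and below it in the other 4 G libraries. G13, the highest, was at 123% of the control (122 to 125), and G5, the lowest, at 76.4% (75.4 to 77.4). ALDOA mRNA is GC-rich, at 60.6% and percentile 88.3 of the genes compared. The log2 ratio of ALDOA was above the length and GC trend in 5 of 6 G libraries. Its median with that trend removed was 0.52 in place of -0.18.

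TPI1, the isomerase that interconverts the 2 triose phosphates, lies on chromosome 12 (6867119 to 6870948, plus strand). Its level was 5846 TPM for the control, 4046 for G3, 3114 for G5, 3155 for G11, 4235 for G12, 4140 for G13 and 2416 for G14. Every G library was below the control, with a middle group of G3, G12 and G13, a lower pair of G5 and G11, and G14. G14 was at 41.3% of the control (40.9 to 41.8), and G12, the nearest, at 72.4% (71.8 to 73.1). TPI1 remained below the control in all 6 G libraries after rescaling by the median of ratios. Its log2 ratios were also below the length and GC trend in all 6, by values from -0.74 in G14 to -0.02 in G13.

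GAPDH, the dehydrogenase that makes 1,3-bisphosphoglycerate and NADH and whose mRNA is often used as a reference in expression assays, lies on chromosome 12 (6533927 to 6538374, plus strand). It was at 3438 TPM in the control and 3214 in G3. Its level was 1606 TPM for G5, 1373 for G11, 1745 for G12, 1692 for G13 and 966 for G14. The control and G3 thus stood together above the other 5 libraries, and no 2 libraries next to each other in this order were within counting error. G3 was at 93.5% of the control (92.4 to 94.6), G12 at 50.8% (50.1 to 51.4) and G14 at 28.1% (27.6 to 28.5).

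GAPDH had the widest range of the 9 enzymes. Its highest library was 3.56 times its lowest, which lay at percentile 88.6 of all genes compared, where the median gene had a factor of 1.82. TPI1 followed at 2.42 times and percentile 72.6, and PGK1 had the narrowest range, 1.26 times and percentile 3.87. G3 and G13 had the lowest RBFOX2 levels, and GAPDH was at 3214 TPM in the former and 1692 TPM in the latter. The RBFOX2 level is a gene total, while the knockdowns are of isoforms, and a link between GAPDH and RBFOX2 was not tested. By its annotated transcripts GAPDH mRNA had a GC content of 58.7%, percentile 82.3. The main isoform as listed starts 590 bases downstream of its annotated start. This GC value and the trend removal thus rest partly on bases outside it. After removal of the length and GC trend the log2 ratios of GAPDH were -0.09 for G3, -0.85 for G5, -0.94 for G11, -0.56 for G12, -0.41 for G13 and -1.21 for G14. The median over the 6 was then -0.70 in place of -1.06.

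PGK1, the kinase that makes the first ATP returned by the pathway, lies on chromosome X (77910739 to 78129296, plus strand). Its level was 503 TPM for the control, 620 for G3, 592 for G5, 511 for G11, 494 for G12, 494 for G13 and 618 for G14. PGK1 had a higher group of G3, G5 and G14 and a group of G11, G12 and G13 whose intervals all include the control. G3 was at 123% of the control (120 to 127), G14 at 123% (120 to 126) and G5 at 118% (115 to 121). Rescaling by the median of ratios put G12 and G13 at log2 ratios of 0.11 and 0.14 in place of -0.02 each. After removal of the length and GC trend the ratios ran from -0.16 to 0.09.

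PGAM1, the mutase that moves the phosphate from position 3 to position 2 of phosphoglycerate, lies on chromosome 10 (97426160 to 97433441, plus strand). It was listed at 6.90 TPM for the control, 3.70 for G3, 3.93 for G5, 5.95 for G11, 5.47 for G12, 4.39 for G13 and 5.54 for G14. These values rest on 66 to 146 reads per library, and no 2 libraries next to each other in order differed beyond counting error. G3 was at 53.6% of the control (39.0 to 73.1), G5 at 56.9% (43.1 to 75.0) and G13 at 63.5% (48.1 to 83.8). The intervals of the other 3 G libraries include the control. PGAM1 has 13 pseudogenes in the gene name table, GAPDH 65, and the 9 enzymes 99 together, and none of these 99 had an isoform row here. How reads shared with such copies were assigned is not given in the sources used here, so the levels of these enzymes, and that of PGAM1 in particular, are uncertain.

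ENO1, the enolase that makes phosphoenolpyruvate, lies on chromosome 1 (8861000 to 8879250, minus strand). Its level was 3821 TPM for the control, 4017 for G3, 4668 for G5, 4874 for G11, 4801 for G12, 5040 for G13 and 5642 for G14. ENO1 was the only 1 of the 9 enzymes above the control in all 6 G libraries, and every library differed from its neighbours in order beyond counting error. G3 was at 105% of the control (104 to 106) and G14 at 148% (146 to 149). It stayed above the control in all 6 after rescaling by the median of ratios (0.05 to 0.68). Its log2 ratios were also above the length and GC trend in all 6 (0.14 to 0.91).

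LDHA and LDHB encode the 2 subunits of lactate dehydrogenase, which assemble into tetramers of mixed composition. LDHA lies on chromosome 11 (18394388 to 18408425, plus strand). Its level was 1012 TPM for the control, 1377 for G3, 1128 for G5, 966 for G11, 893 for G12, 883 for G13 and 999.8 for G14. G3 stood highest, at 136% of the control (133 to 139), and G13 lowest, at 87.2% (85.4 to 89.0). G14 was within counting error of the control (96.8 to 101), and rescaling by the median of ratios put it at a log2 ratio of 0.10 in place of -0.02.

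LDHB lies on chromosome 12 (21635342 to 21757857, minus strand). Its level was 3754 TPM for the control, 3329 for G3, 3150 for G5, 3123 for G11, 3296 for G12, 3265 for G13 and 2535 for G14. The first 5 G libraries were close together, between 83.2% and 88.7% of the control, and G14 stood apart at 67.5% (66.8 to 68.3). LDHB was below the control in all 6 both as deposited and with median-of-ratios scaling. Its log2 ratios were above the length and GC trend in 2 of the 6, at most by 0.13.

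LDHA reads made up 21.2% of the LDHA and LDHB reads in the control (Wilson interval 21.0 to 21.5). The share was 29.3% for G3 (28.95 to 29.6), 26.4% for G5 (26.1 to 26.6), 23.6% for G11 (23.3 to 23.9), 21.3% for G12 (21.1 to 21.6), 21.3% for G13 (21.0 to 21.5) and 28.3% for G14 (28.0 to 28.6). As deposited, G3 and G14 were the highest. In G3 the level of LDHA was above the control, whereas in G14 LDHA was within counting error of it and LDHB was lower. G12 and G13 were within counting error of the control. The 2 transcripts differ in length, a mean of 2372 nt for LDHA and 1304 nt for LDHB, so the share is not a ratio of molecules in the cell, and it moved with the length and GC trend of the libraries. After removal of that trend, which was added once the data had been seen, the share was 24.4% for G3, 21.9% for G14, 20.8% for G5, 19.4% for G11, 19.4% for G13 and 19.3% for G12. These adjusted shares are relative to the values fitted for genes of like length and GC content, and not to the control alone. The adjusted share of G3 stayed above the control share of 21.2%. That of G14 was 0.06 above it on the log2 scale of LDHA over LDHB in place of 0.55. Those of G5, G11, G12 and G13 were below it.

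**Figure D3:**
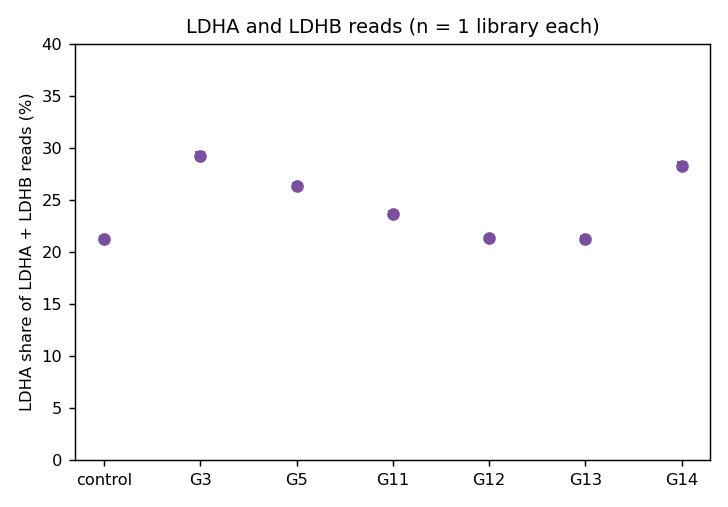
Points are the share of LDHA reads among LDHA and LDHB reads in percent (y axis), as deposited, in each library (x axis, 1 library each), with Wilson 95% intervals that cover counting error only and are about the size of the points. G3 (29.3%), G14 (28.3%) and G5 (26.4%) stand above the control (21.2%), and G12 and G13 are level with it. With the length and GC trend removed, only the adjusted shares of G3 (24.4%) and G14 (21.9%) exceed the control share.

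Windows before RefSeq start sites of the 9 enzymes were searched for ACGTG on either strand. This is the core of the element bound by hypoxia-inducible factors, which are known regulators of glycolytic genes. Overlapping matches were counted, so that CACGTG counts as 2. The windows are the 250 bases before a RefSeq start site (GRCh38.p14). Of 13 windows of the 9 genes, 7 had their start site within 250 bases of the 5′ end of the gene's most used isoform, and 4 of these 7 held the motif: those of GPI, ALDOA, PGK1 and LDHA. Over all 13 windows, 8 held it, among them the only GAPDH window, whose start site lies 747 bases downstream of the main 5′ end. The only PGAM1 window, with its start site 1775 bases downstream, did not. The 250 bases before the main 5′ ends of GAPDH and PGAM1 were thus not searched. Of all 35116 windows, 18.5% held the motif. The LDHA window had 5 matches and the PGK1 window 2. The near windows of TPI1, ENO1 and LDHB had no match, which says only that these letters are not in those 250 bases. Another TPI1 window, 674 bases from the main 5′ end, held 1 match. A match is a description of the sequence and not a bound site. For PGK1 and the pair of lactate dehydrogenase genes, a stretch of the near window upstream of the main transcript's first exon is shown, with the motif in capitals. They were chosen because LDHA and PGK1 held the most matches among the 7 near windows and LDHB none. The LDHB stretch ends at 21657972, short of the first exon of its main transcript, which GENCODE 29 starts at 21657842. The stretch of LDHA holds 2 of its 5 matches, and the others lie beyond it:
PGK1 (chrX:78103998-78104173, plus strand): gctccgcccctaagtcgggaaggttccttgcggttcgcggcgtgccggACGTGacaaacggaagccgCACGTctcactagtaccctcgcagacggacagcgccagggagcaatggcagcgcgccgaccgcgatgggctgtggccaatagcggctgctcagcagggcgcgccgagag
LDHA (chr11:18394313-18394387, plus strand): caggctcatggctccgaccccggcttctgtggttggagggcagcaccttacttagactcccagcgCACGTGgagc
LDHB (chr12:21657972-21658092, minus strand): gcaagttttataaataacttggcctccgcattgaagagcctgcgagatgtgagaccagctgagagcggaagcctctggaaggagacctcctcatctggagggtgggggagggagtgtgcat

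Isoform use was examined next. The number of listed isoforms ran from 8 for PGAM1 to 154 for ALDOA, most of them with a hashed ID that is no reference ID. Hashed isoforms are numbered here within a gene by their mean share. Only 13 isoforms held at least 5% of their gene on average, and 6 of the 9 genes had just 1 such isoform. These single isoforms held 96.7% of GPI on average (ENST00000356487.11), 98.6% of TPI1 (ENST00000229270.8), 94.9% of PGK1 (ENST00000373316.5), 88.9% of PGAM1 (ENST00000334828.6), 97.1% of ENO1 (ENST00000234590.10) and 97.9% of LDHB (ENST00000350669.5). The remaining genes, ALDOA, GAPDH and LDHA, used more than 1.

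Of 78 pairs of such an isoform and a G library, 4 had a share at least 10 percentage points from the control, or 5.13%. The same held for 8.73% of such pairs over all genes compared, and for 3.1% among genes with a mean of at least 100 TPM. The enzymes were thus within the range of the background. The 4 pairs were the main GAPDH isoform in G13 and G14 and the main PGAM1 isoform in G12 and G13. PGAM1 had 116 reads in the control, of which its main isoform held 81.0% (73.0 to 87.1), against 95.9% in G12 (91.3 to 98.1) and 93.0% in G13 (86.3 to 96.6).

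ALDOA reads began at several start sites. ENST00000643777.4 starts at 30065754 and held 75.2% of ALDOA reads in the control and 73.5% (G14) to 77.6% (G3) in the G libraries. Hashed isoform 1 of ALDOA starts upstream of it at 30064175 and held 13.2% in the control and 11.8% (G3) to 15.3% (G14) in the G libraries. ENST00000563060.6 starts at 30064239 and held 7.34% in the control and 7.13% to 7.40% in the G libraries. In GENCODE 29 both named transcripts have the start codon in a shared second exon, so their first exons differ in noncoding sequence. The 30 bases around the junction are shown for both to mark what distinguishes them, with the first exon in lower case and the second in capitals:
ALDOA ENST00000643777: cctctcctgtgccagGAACTTGCTACTACC
ALDOA ENST00000563060: tcctctgaagcaccgGAACTTGCTACTACC

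Summed over all isoforms, those starting within 500 bases of the start of ENST00000643777.4 held 77.4% of ALDOA reads in the control (77.0 to 77.8), 79.2% in G3 (78.8 to 79.6) and 75.4% in G14 (75.0 to 75.8). The other 4 G libraries lay between 76.2% and 76.8%. Start site use of ALDOA thus spanned less than 4 percentage points, while its level spanned a factor of 1.61.

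LDHA had an isoform with another start codon. ENST00000422447.8, the main isoform, starts at 18394552 and is translated from its second exon. ENST00000540430.5 starts at 18396272, 1720 bases downstream, in a first exon of its own that GENCODE 29 gives a start codon, which adds 29 residues before the start of the main protein. The junctions are shown with the first exon in lower case and the second in capitals, because the first exon holds the other start codon:
LDHA ENST00000422447: cgacgtgcattcccgATTCCTTTTGGTTCC
LDHA ENST00000540430: cttttccacgctaagATTCCTTTTGGTTCC

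ENST00000540430.5 held 5.57% of LDHA reads in the control (5.24 to 5.93). It held 4.88% in G3 (4.62 to 5.16), 6.26% in G5 (5.98 to 6.55) and 6.81% in G11 (6.47 to 7.17). G12 (5.50%), G13 (5.39%) and G14 (5.63%) were within counting error of the control. Its level followed that of the main isoform only in part: in G11 it was at 117% of the control (107 to 127), while ENST00000422447.8 was at 92.5% (90.5 to 94.5).

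Apart from PGAM1 with its few reads, GAPDH had the largest differences in isoform share. ENST00000229239.10, the main isoform, held 91.3% of GAPDH reads in the control (91.1 to 91.6), 94.6% in G3 and 91.4% in G5. The share was 85.6% for G11 (85.2 to 86.0), 82.3% for G12 (81.9 to 82.6), 79.0% for G13 (78.6 to 79.4) and 79.2% for G14 (78.6 to 79.7). The share of ENST00000396859.5 was 3.96% for the control, 2.22% for G3, 4.23% for G5, 7.55% for G11, 9.73% for G12, 12.2% for G13 and 11.9% for G14. The share of the second isoform was thus higher in G11, G12, G13 and G14 than in the control, G3 and G5. This division of the libraries was made after the shares were seen.

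In GENCODE 29 these isoforms differ at the first intron, from 6534570 to 6534809 on chromosome 12 (240 bases). ENST00000229239 removes it, and ENST00000396859 has a single first exon from 6534754 to 6534861 that reads from the end of that intron into the second exon. In the table both start at 6534517, which is 237 bases upstream of the annotated start of ENST00000396859. That position lies inside the first exon of ENST00000229239, from 6533927 to 6534569. With the annotated introns of ENST00000396859, an isoform from that start would keep all 240 bases of the first intron. The exon structure of the listed isoform was not examined. Both isoforms share the start codon at 6534833 in the second exon, so the difference is in noncoding sequence. In the annotated transcripts the 15 bases before the second exon set the isoforms apart and are shown in lower case, with the second exon in capitals:
GAPDH ENST00000229239: cttttgcgtcgccagCCGAGCCACATCGCT
GAPDH ENST00000396859: tctccctccgcgcagCCGAGCCACATCGCT

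Counted over these 2 isoforms alone, the share of ENST00000396859.5 was 4.16% in the control (2290 of its reads against 52765 of the main isoform) and 2.30% in G3. It was 4.42% for G5 (4.22 to 4.63), 8.10% for G11 (7.78 to 8.44), 10.6% for G12 (10.3 to 10.9), 13.3% for G13 (12.98 to 13.7) and 13.03% for G14 (12.5 to 13.5). The level of the isoform was 136 TPM for the control, 71.5 for G3, 67.9 for G5, 104 for G11, 170 for G12, 206 for G13 and 114 for G14. The main isoform was at 3140 TPM in the control and 764 TPM in G14. ENST00000396859.5 was thus above its control level in G12 (125%, 119 to 131) and G13 (151%, 144 to 159), while the main isoform was at 45.7% and 42.6% in those libraries. With only reference isoforms in the denominator, no share of GAPDH was 10 points from the control.

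**Figure D4:**
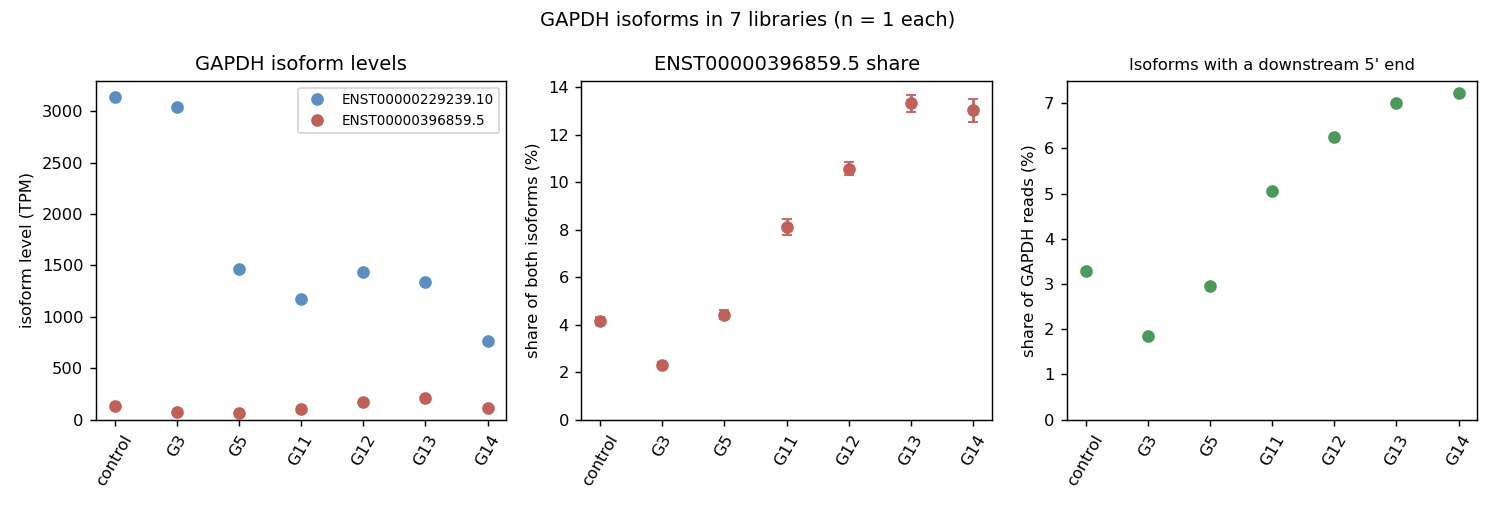
The left panel gives the level of 2 GAPDH isoforms in TPM, the middle panel the share of ENST00000396859.5 among the reads of both in percent with Wilson 95% intervals, and the right panel the share of GAPDH reads in isoforms whose 5′ end lies over 100 bases downstream of that of the main isoform, each by library (x axis, 1 library each). Both shares are lowest in G3, at 2.30% and 1.85%, and are higher in G11, G12, G13 and G14 than in the control.

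A further set of isoforms begins at or next to the second exon. They were noticed in these data and are below 5% of their genes, so they were chosen after their values were seen. Hashed isoform 1 of GAPDH starts at 6534804, which is 6 bases before the second exon of the main transcript, and its 3′ end lies 1074 bases beyond that of the main isoform. Hashed isoforms 1 of PGK1 and ENO1 start 2 bases before the second exon, and hashed isoform 1 of LDHB and ENST00000542179.1 of LDHA start 1 base before it. Isoforms that begin there lack the first exon of the main transcript. The labels give RNA integrity numbers of 8.7 to 9.7, with no value per library, so the part of RNA quality in these shares was not tested.

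The shares of these 5 isoforms were lowest in G3 or G5 and highest in G13 or G14. The share of hashed isoform 1 of GAPDH was 2.41% for the control, 1.33% for G3, 2.25% for G5, 3.88% for G11, 4.92% for G12, 5.55% for G13 and 5.61% for G14. That of PGK1 was 2.03% for the control, 1.64% for G3, 2.29% for G5, 3.26% for G11, 4.89% for G12, 5.46% for G13 and 5.19% for G14. The share of ENST00000542179.1 of LDHA was 1.95% for the control, 1.51% for G3, 2.06% for G5, 3.47% for G11, 4.48% for G12, 5.37% for G13 and 4.91% for G14. In each of these 3 genes G3 was the lowest library, and G12, G13 and G14 were the highest. Hashed isoform 1 of LDHB ran from 0.762% in G3 to 1.73% in G13, with 0.928% in the control. That of ENO1 ran from 0.953% in G5 to 1.60% in G13, with 1.17% in the control.

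The isoforms whose 5′ end lay over 100 bases downstream of that of the main isoform were then summed in each gene. Their share was above the control in 0 of the 9 enzymes in G3, 2 in G5, 5 in G11 and 6 in each of G12, G13 and G14. Among all genes compared it was above the control in 14.7%, 18.3%, 29.2%, 33.7%, 36.4% and 34.4% in the same order. Among genes with a mean of at least 100 TPM it was above the control in 14.5%, 17.9%, 31.1%, 35%, 38.9% and 36.3%. The 6 enzymes were TPI1, GAPDH, PGK1, ENO1, LDHA and LDHB. Over all genes, too, the share was above the control least often in G3 and most often in G13. GPI had no such read in any library, ALDOA had 1 in the control alone, and PGAM1 was below the control in all 6.

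The main isoform of an enzyme held a share above the control in all 9 genes in G3. It was below the control in 3 of the 9 for G5, in 7 for G13 and in 6 for each of G11, G12 and G14. The median change over the 9 was 1.09 points for G3, 0.14 for G5, -0.19 for G11, -0.55 for G12, -0.65 for G13 and -0.56 for G14. Among all genes compared the main isoform was below the control in 21.9% for G3, 21.9% for G5, 27.1% for G11, 27.3% for G12, 31.6% for G13 and 30.6% for G14. The median change over all genes was 2.00 points in G3, above that of the enzymes, and 1.32 to 2.01 points in the other 5. Over genes with a mean of at least 100 TPM the median change was above 0 in every G library, from 0.59 points in G13 to 0.85 in G3. Isoforms were listed only where the control had a read, and this adds minor isoforms to the control alone; its part in these changes was not tested.

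**Figure D5:**
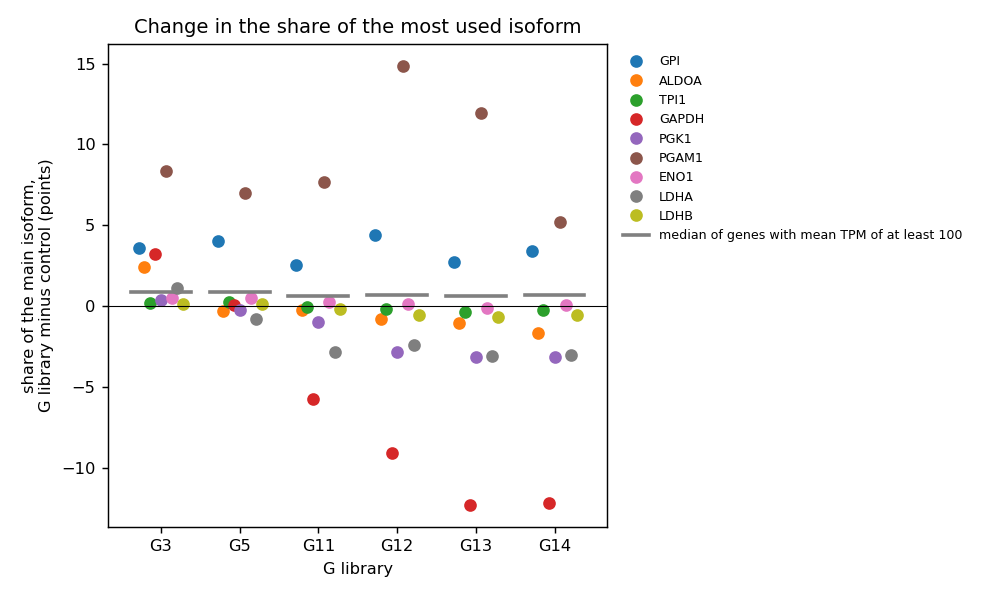
Points are the change in the share of the most used isoform of each of the 9 enzymes, G library minus control, in percentage points (y axis) by G library (x axis), and grey lines the median over genes with a mean of at least 100 TPM. GAPDH lies at -12.3 points in G13 and -12.2 in G14, and PGAM1, which had 66 to 146 reads, at 14.9 points in G12.

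Other genes of glucose metabolism were taken from a list of 27, of which 23 had a mean of at least 5 TPM. Of 138 pairs of a gene and a G library, 1 was at least 2-fold higher and 5 were at least 2-fold lower, 4.35% in all against 12.8% of pairs among all genes. The control was the highest library for 2 of the 23 (8.70%) and the lowest for 6 (26.1%). Among all genes compared these shares were 20.5% and 21.1%. No gene was 2-fold apart in 3 or more G libraries. The genes of the 6 pairs were chosen after their values were seen. SLC2A1, a glucose transporter of the plasma membrane, was at 414 TPM for the control, 418 for G3, 589 for G5, 714 for G11, 749 for G12, 721 for G13 and 964 for G14. It was level with the control in G3 and above it in the other 5, up to 233% in G14 (227 to 239).

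The 5 lower pairs were in G13 and G14. PFKL, a subunit of phosphofructokinase, was at 135 TPM in the control, 175 in G3 and 46.5 in G13. HK2, a hexokinase, was at 19.4 TPM in the control, 29.7 in G3 and 7.28 in G13. Both were above the control in G3 and G5 and below it in the other 4 G libraries. PGD, of the pentose phosphate pathway, was at 92.8 TPM in the control, 137 in G3, 41.0 in G13 and 42.6 in G14. TALDO1, transaldolase of the same pathway, was at 254 TPM in the control, 218 in G3 and 80.8 in G14. The 2-fold limit left out values close to it in both directions. In G14, SLC2A3 and SLC16A1 were each at 189% of the control, PDK1 at 187%, and BPGM and SLC16A3 each at 183%. These genes of the list were also chosen after their values were seen. TALDO1 was at 50.1% of the control for G11, 51.1% for G13, 55.9% for G12 and 56.6% for G5. PGD was at 50.1% of the control for G12, 74.3% for G11 and 105% for G5.

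The genes whose levels over the 7 libraries were most like the mean of the 9 enzymes were sought among 3380 genes with a mean of at least 50 TPM. They were SSU72 (Pearson correlation 0.997), GSTP1 (0.996), STX10 (0.992), DDAH2 (0.990) and PTGR1 (0.989). These correlations describe 7 libraries that share 1 scaling and carry no test. SSU72 was at 582 TPM in the control, 526 in G3 and 273 to 383 TPM in the other 5, and GSTP1 at 410, 297 and 92.1 to 177 TPM. Both thus had the control and G3 above the rest and G14 lowest, as GAPDH did.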

How the data were processed

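Per the labels' protocols, cDNA molecules were joined into 8-fold arrays (MAS-Seq), read on the Revio system and split back into single molecules. The submitters' processing notes name minimap2 2.17 and GRCh38. The isoform caller, its filters, its annotation and its use of strand are not given in the sources used here. The deposited table holds, per the file headers, the full-length count of each isoform in each library beside a TPM. Each deposited TPM matched its count over a library total, within 0.005 TPM, and those totals were used as the depth.

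An empty cell was taken as a count of 0. Gene totals are sums over isoforms sharing an Ensembl gene ID, version dropped. IDs that join the gene with another ID were assigned to the gene, and they held 98.6% of TPI1 reads, 97.9% of LDHB reads and 5.72% of LDHA reads. Start coordinates were raised by 1. Log2 ratios used log2(TPM + 0.5) and genes with a mean of at least 5 TPM. All intervals are at 95%, by Clopper-Pearson for ratios and by Wilson for shares; reads without molecular identifiers are not independent molecules, so they cover counting error only. Length and GC content came from GENCODE 29 transcripts weighted by isoform level. The main isoforms of GAPDH, TPI1 and LDHA as listed start 590, 312 and 164 bases downstream of their annotated starts. The length and GC content of these genes thus include bases outside the listed isoforms. The trend with length and GC content, fitted over all genes in each library, took up 29.9% to 46.5% of the variance of ratios. The calculations were tested on simulated data, with Python 3.11.15, pandas 2.3.3, NumPy 2.4.6 and SciPy 1.17.1.

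The members, gene lists and settings were chosen with earlier results of these data known. The genes named are the 9 enzymes, their isoforms with at least 5% of the gene on average, RBFOX2, listed genes at least 2-fold from the control in 3 or more G libraries, and the 5 genes most like the mean of the 9. Members of the cell type marker lists are named beside them. Other genes are marked as chosen after their values were seen.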

Additional observations from a re-analysis of the deposited data

How the results depend on the processing

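No paired analysis was possible because each group had 1 library. The count of 5 pairs at least 2-fold from the control became 13 at 1.5-fold, 0 with the median of the other 6 libraries as the reference and 1 with the length and GC trend removed, and it ran from 3 (without G14) to 5 when each G library was left out. It stayed within a factor of 1.5 with the other settings tried. The share of all gene and library pairs at least 2-fold apart was 8.28% among genes with a mean of at least 100 TPM. That share belongs to the 2-fold limit against the control as deposited. For the 1.5-fold limit, the other reference and the trend-removed ratios no share over all genes is given. The counts under those settings are therefore not set against a background.

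The median log2 ratio of the 9 enzymes moved with the scaling. Rescaling by the median of ratios shifted the median of all genes by up to 0.16 (G13) and put the enzymes at -0.12 in G3, -0.29 in G5, -0.051 in G12 and -0.041 in G13. Reference isoforms alone gave -0.075 in G3. Against the median of the other 6 libraries the value was 0.16 in G3, -0.059 in G5, 0.040 in G12 and 0.015 in G13, which reversed G3, G12 and G13. With the length and GC trend removed it was 0.089 in G3 and 0.025 in G5, both reversed, -0.12 in G12, -0.14 in G13 and -0.096 in G14. In G14 it was -0.19 after rescaling and -0.17 against the other 6, and in G11 -0.071 against the other 6. Apart from these, single enzymes reversed as follows: ALDOA to 0.52 and PGK1 to -0.036 with the length and GC trend removed, and LDHA to 0.038 after rescaling. The cause was not tested.

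The 4 isoform shares at least 10 points from the control became 16 at 5 points, 0 at 20 points, 2 when isoforms under a mean of 1 TPM were left out and 0 with reference isoforms alone. For these other settings, too, no share over all genes is given. With reference isoforms alone, LDHA was 21.6% of LDHA and LDHB reads in G12, 21.6% in G13 and 28.7% in G14, with 21.5% in the control. With the length and GC trend removed, added after seeing the data, it was 24.4% for G3, 20.8% for G5, 19.4% for G11, 19.3% for G12, 19.4% for G13 and 21.9% for G14. Of the 9 enzymes PGAM1 is limited most by depth, at 66 to 146 reads.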
